A study of Mus musculus with 12 samples.

Results

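The let-7 and miR-98 family members described here were 9 mature microRNAs (miRNAs) of mouse gastrocnemius muscle, the large calf muscle: mmu-let-7a-5p, mmu-let-7b-5p, mmu-let-7c-5p, mmu-let-7d-5p, mmu-let-7e-5p, mmu-let-7f-5p, mmu-let-7g-5p, mmu-let-7i-5p and mmu-miR-98-5p. They are called let-7a to let-7i and miR-98 below. They were picked from the table by name, with earlier results of these data known, and they made up 12 of the 2035 rows and 9 of the 1900 mature miRNAs. Small RNA was sequenced from 6 young male C57BL/6 mice of 6 months and 6 aged male C57BL/6 mice of 24 months, with 1 library per muscle and no treatment or genetic change in either group. Levels are in FPKM, reads divided by the length of the mature miRNA and by the number of reads mapped in that library. The p-values therefore measure the spread between these 12 muscles.

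MiRNAs pair with messenger RNAs mainly through their seed, a short stretch near the 5′ end, and lower the stability and translation of the targets they bind. The let-7 miRNAs accumulate as cells leave the embryonic state and differentiate, are abundant in adult tissues, and are known repressors of growth and cell-cycle genes such as Ras, Hmga2 and Lin28. LIN28 proteins in turn block the maturation of let-7 precursors, in part by binding a GGAG stretch in the loop.

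The sequences of all 9 members are shown because the seed is what unites them and the remaining bases are what the counting had to separate. Capitals mark the seed, bases 2 to 8 counted from the 5′ end, and the sequences are those of RefSeq (GRCm38.p6).
let-7a-5p: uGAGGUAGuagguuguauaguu
let-7c-5p: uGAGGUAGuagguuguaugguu
let-7e-5p: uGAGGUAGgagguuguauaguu
let-7f-5p: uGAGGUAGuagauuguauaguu
let-7b-5p: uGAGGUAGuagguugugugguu
let-7d-5p: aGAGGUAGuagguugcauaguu
let-7g-5p: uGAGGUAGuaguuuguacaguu
miR-98-5p: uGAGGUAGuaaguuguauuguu
let-7i-5p: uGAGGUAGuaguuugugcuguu

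All 9 were 22 bases long and carried the same seed. Against let-7a, with the base of let-7a written first and positions counted from 1 at the 5′ end, let-7c differed by A19G, let-7e by U9G and let-7f by G12A. The members with 2 differences from let-7a were let-7b (A17G and A19G), let-7d (U1A and U16C), let-7g (G12U and U18C) and miR-98 (G11A and A19U). The farthest from let-7a was let-7i, with G12U, A17G, U18C and A19U. Among the 36 pairs of members the number of differences ran from 1 to 6, and 4 pairs differed by a single base. The 4 were let-7a with let-7c, let-7e and let-7f, and let-7b with let-7c. The sources do not say where a read with more than 1 possible origin was placed, so the split between these near-identical members carries that uncertainty.

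The seed was found in 11 of 1679 mature mouse miRNAs in RefSeq. The 2 that are not members were let-7k and miR-1961, and the 9 members held 99.98% of the FPKM of these 11. Only 1603 of the 1900 names had a RefSeq sequence, so the rest could not be searched for the seed.

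The 9 members come from 12 hairpins on 7 chromosomes, placed here in GRCm38.p6 with RefSeq coordinates that were the same in GENCODE M21. On chromosome 13 the hairpins of let-7a-1 (48538179 to 48538272), let-7f-1 (48537829 to 48537917) and let-7d (48536012 to 48536114) lie on the minus strand in exons of the long noncoding gene 6720427I07Rik, with 261 and 1714 bases between neighbours. On chromosome 15 let-7c-2 (85706603 to 85706697) and let-7b (85707319 to 85707403) lie 621 bases apart in exons of the noncoding gene Lncppara. On chromosome X let-7f-2 (151912346 to 151912428) and miR-98 (151913214 to 151913321) lie 785 bases apart in an intron of Huwe1, which encodes a ubiquitin ligase. The hairpin of let-7g sits in an intron of Wdr82 (chromosome 9, 106178840 to 106178927), that of let-7i in an exon of the pseudogene D630033A02Rik (chromosome 10, 122985640 to 122985724, minus strand), and that of let-7e in an intron of Spaca6 (chromosome 17, 17830352 to 17830444). The last 2, let-7a-2 (chromosome 9, 41536716 to 41536811) and let-7c-1 (chromosome 16, 77599657 to 77599750), lie in introns of the noncoding genes 3110039I08Rik and Mir99ahg. The hairpins of let-7a-2, let-7c-1 and let-7e each have a hairpin of the miR-99 and miR-100 family or of the miR-125 family as a near neighbour, with 5211 bases to miR-100, 656 bases to miR-99a and 367 bases to miR-125a.

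The letters GGAG were looked for on the transcribed strand between the 5p and 3p sequences of each hairpin. They were present in 9 of the 12 let-7 and miR-98 hairpins and absent from let-7b, let-7c-2 and miR-98. Over all 645 mouse hairpins with both arms in RefSeq, 8.22% held GGAG between the arms. The stretch between the arms was 23 to 36 bases long in the family, against a median of 16 bases over all hairpins, and among the 62 hairpins with a stretch of 23 to 36 bases, the family included, 25.8% held it.

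The libraries held an estimated 198733 to 6239342 reads in young and 123042 to 7515016 in aged muscle, of which 2915 to 76467 and 1695 to 120025 were reads of the 9 members. The median was 421102 reads in young and 1323700 in aged muscle, so depth went in part with age. Read totals given below for each age group reflect this difference in depth. The muscle miRNAs miR-1a, miR-133a, miR-133b and miR-206 were above 0 in all 12 libraries, while miR-208b was listed at 0 in 5 and miR-499 in 4. Lists of red blood cell, white blood cell, endothelial and fibroblast miRNAs were also above 0 in every library. In whole muscle, fewer cells of a type and less RNA per cell cannot be told apart.

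let-7f was the most abundant member by far. It ran from 248902 to 317347 FPKM in young muscle with a median of 281151, and from 282940 to 410046 FPKM in aged muscle with a median of 352805. By group mean it was the 17th most abundant miRNA of young muscle and the 15th of aged muscle. It was higher than let-7a, the next in order, in 12 of 12 libraries, by 1.70 ± 0.11 (SD, n = 12) on the log2 FPKM scale.

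The next 3 members, let-7a, let-7c and let-7i, formed a middle group. Over all 12 libraries their mean levels were 97624 FPKM for let-7a, 70979 FPKM for let-7c and 66304 FPKM for let-7i. let-7a was above let-7c in 12 of 12 libraries, by 0.46 ± 0.10 log2 (SD, n = 12). let-7c was above let-7i in 9 of 12, by 0.10 ± 0.10 log2 (SD, n = 12), a gap no larger than its spread, so the order of let-7c and let-7i was not separated.

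let-7g followed with 43201 FPKM, then let-7d with 23261 and let-7b with 18248 FPKM. let-7d was above let-7b in 11 of 12 libraries, and the gap of 0.34 ± 0.21 log2 (SD, n = 12) was the second smallest in the order. miR-98 with 5835 FPKM and let-7e with 3554 FPKM were the rarest, and miR-98 was above let-7e in 12 of 12 libraries.

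**Figure D1:**
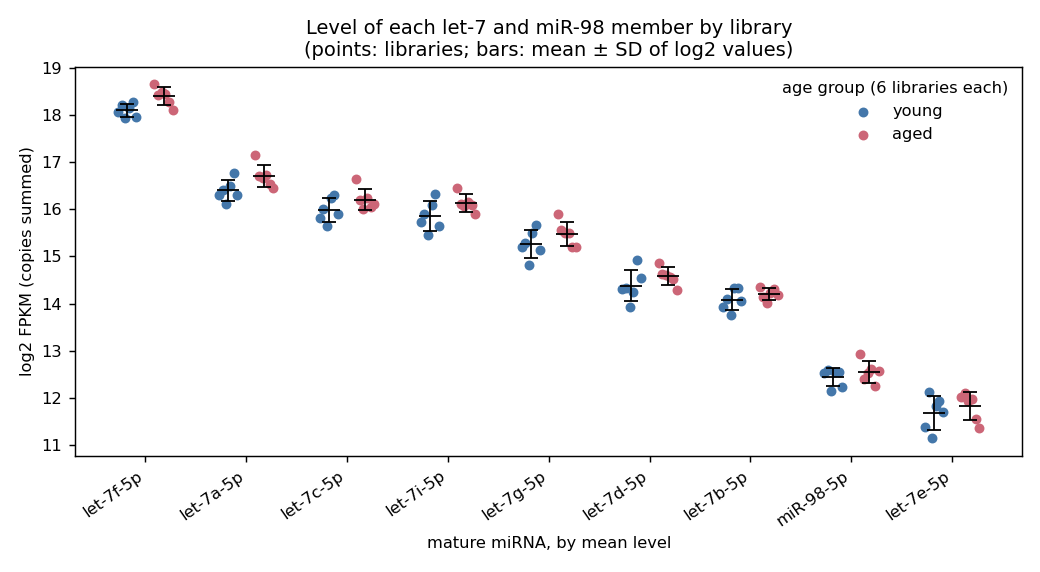
Level of each member in each library, as log2 FPKM with genomic copies summed, for 6 young and 6 aged libraries; points are libraries and bars the mean ± SD of the log2 values. The age groups overlap for all 9 members, and the order from let-7f down to let-7e spans far more than either group's spread.

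These levels rest on how the copies were counted. The table gave 2 rows each for let-7a, let-7c and let-7f, whose mature sequence is made from 2 hairpins each, without saying which row is which hairpin. The first row listed held 48.6% to 53.8% of the FPKM of let-7a, 47.1% to 52.9% of that of let-7c and 48.1% to 50.9% of that of let-7f over the 12 libraries. The 95% Wilson interval of that share, which covers counting error only, held 50% in 11, 10 and 7 libraries. For let-7f the first row was under 50% in 9 of 12 libraries, and the 5 intervals without 50% all lay below it. Rows that held every read in both places would be identical, and these rows were not, so they were summed. Whether part of the reads was entered in both rows was not tested, and the summed levels carry that uncertainty. The mature sequence cannot be assigned to a hairpin, and no level is given for let-7a-1 against let-7a-2, or for the copies of let-7c and let-7f. If the rows are averaged instead, let-7i stands above let-7a, with 16.4% against 11.9% of the family in young muscle.

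The shares of the family held by each member lay close together at both ages. let-7f held 48.5% ± 2.56 of the summed FPKM of the 9 members in young and 49.4% ± 1.78 in aged muscle (SD, n = 6 each), and let-7a held 14.9% ± 0.477 and 15.3% ± 0.672. The shares of let-7c were 11.2% ± 0.718 and 10.8% ± 0.953, and those of let-7i 10.3% ± 0.915 and 10.3% ± 0.361. These 4 members held the bulk of the family in every library.

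In percentage points the smaller shares differed as little between the ages, though relative to their size the gaps were wider than that of let-7f. let-7g held 6.84% ± 0.513 of the family in young and 6.55% ± 0.390 in aged muscle, let-7d 3.73% ± 0.591 and 3.51% ± 0.113, and let-7b 3.01% ± 0.195 and 2.72% ± 0.366. miR-98 held 0.962% ± 0.0806 and 0.866% ± 0.101, and let-7e 0.579% ± 0.0971 and 0.526% ± 0.0698. In each case the means of the age groups lay about as close as the libraries within a group, and no test was made, since shares of 1 sum depend on each other.

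**Figure D2:**
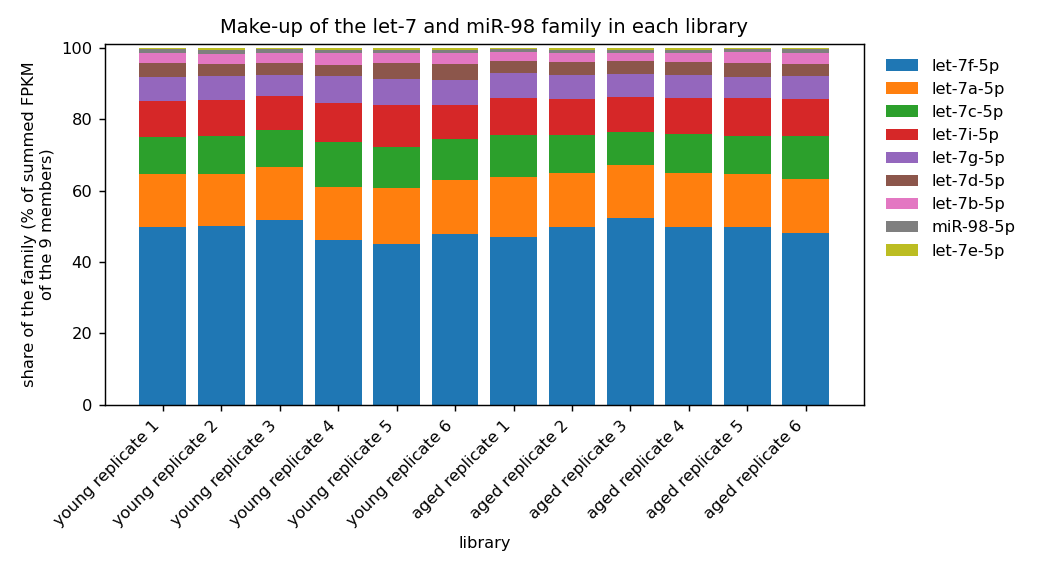
Share of each member in the summed FPKM of the 9 members, in percent, in each of the 12 libraries (1 bar per library). let-7f takes the widest part of every bar, at most 52.2%, and miR-98 and let-7e are the thin bands at the top.

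The comparison of age asked whether any member changed from 6 to 24 months. The family summed to a lowest, median and highest value of 481519, 578074 and 704774 FPKM in young muscle and of 589629, 703591 and 871378 FPKM in aged muscle. The groups overlapped: young replicate 5, the highest young library, lay above the aged median. On the log2 scale the sums were 19.14 ± 0.19 in young and 19.41 ± 0.19 in aged muscle (SD, n = 6 each), and the log2 ratio of the mean sums was 0.27. The members' share of the summed FPKM of all miRNAs was 1.37% ± 0.222 in young and 1.61% ± 0.298 in aged muscle (SD, n = 6 each).

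None of the 9 members passed the test. With limma on log2(FPKM + 48.2) and Benjamini-Hochberg adjustment over the 482 miRNAs tested, 0 of 9 members were called at an adjusted p under 0.05, where 2.9% of all miRNAs tested were called (14 of 482) and 0.622% were called as higher in aged muscle. At an unadjusted p under 0.05 the count was 2 of 9 by limma, by limma voom on the recovered reads and by an exact permutation test. After adjustment limma voom called 0 members and 16 of all 482 miRNAs. The permutation test called 0 of all 482 after adjustment, so its 0 members say nothing about the family. By limma 12.9% of all miRNAs tested had an unadjusted p under 0.05, and 5.6% had such a p and were higher in aged muscle. Of the 482, 69 had an unadjusted p under 0.05 by limma voom and 66 by the exact permutation test. The members with an unadjusted p under 0.05 were let-7a and let-7f. All 9 fitted changes were above 0, except that of let-7b after quantile normalization (-0.0011), as were 55.4% of all 482, and their median was 0.21 against 0.07 over all miRNAs tested. Without young replicate 3 these medians were 0.12 and 0.02, and without aged replicate 1 they were 0.13 and 0.02. The age groups overlapped for 9 of 9 members, while they did not overlap for 2.7% of all miRNAs tested.

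let-7a and let-7f had the largest fitted changes, and which of them was the larger depended on the fit: let-7f was the larger after quantile normalization and without young replicate 1, 2 or 3 or aged replicate 1 or 6, and let-7i was above let-7f with depth as a covariate and without young replicate 4 or 5 or aged replicate 3. The levels of let-7a were 71025 to 110750 FPKM in young muscle with a median of 84043, and 89602 to 144931 FPKM in aged muscle with a median of 105570. The young median was exceeded by 6 of 6 aged libraries, but young replicate 5 was higher than 5 of the 6 aged libraries. The log2 change was 0.31 with an SE of 0.126 and a 95% interval of 0.05 to 0.57 (limma, Benjamini-Hochberg adjusted p = 0.245). The two-sided exact permutation test gave an unadjusted p of 0.0433.

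let-7f, whose levels are given above, had a log2 change of 0.30 with an SE of 0.113 and a 95% interval of 0.07 to 0.53 (limma, Benjamini-Hochberg adjusted p = 0.196). Its unadjusted p by the two-sided exact permutation test was 0.0130. Again 6 of 6 aged libraries exceeded the median of the young ones, and the lowest aged library, replicate 6, lay inside the young range. let-7i ran from 45074 to 82380 FPKM in young and from 60725 to 90148 FPKM in aged muscle, with medians of 57727 and 70246. The log2 change of let-7i was 0.27 (95% interval -0.01 to 0.55, limma adjusted p = 0.398), and its 6 aged libraries too exceeded the young median although the ranges overlapped.

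let-7c ran from 50938 to 80715 FPKM in young muscle with a median of 63362, and from 66006 to 102149 FPKM in aged muscle with a median of 72818. Only the highest aged library of let-7c, replicate 1, lay above the young range. Its log2 change was 0.22 (95% interval -0.05 to 0.49, limma adjusted p = 0.478).

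The remaining 5 members had smaller fitted changes. let-7g ran from 29126 to 51776 FPKM in young and from 37902 to 61147 FPKM in aged muscle (medians 38714 and 46021), with a log2 change of 0.21 (95% interval -0.08 to 0.50). let-7d ran from 15717 to 31216 FPKM in young and from 20032 to 29944 FPKM in aged muscle (medians 20525 and 24578), with a log2 change of 0.20 (95% interval -0.10 to 0.49). For let-7d the highest library of all was a young one, replicate 5.

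let-7b, from 13873 to 20595 FPKM in young and 16498 to 21028 FPKM in aged muscle (medians 17259 and 18822), had a log2 change of 0.12 (95% interval -0.14 to 0.37). miR-98 ran from 4576 to 6165 FPKM in young and from 4905 to 7804 FPKM in aged muscle (medians 5976 and 6039), with a log2 change of 0.12 (95% interval -0.20 to 0.43), and only 3 of its 6 aged libraries were above the young median. let-7e ran from 2288 to 4482 FPKM in young and from 2647 to 4421 FPKM in aged muscle (medians 3484 and 3998), with a log2 change of 0.14 (95% interval -0.26 to 0.54). The adjusted p of these 5 members was 0.529 to 0.826 (limma, Benjamini-Hochberg).

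The intervals bound what these 12 libraries allow. The upper ends of the 9 intervals ran from 0.37 for let-7b to 0.57 for let-7a on the log2 scale, so that the largest fold that the interval of any member held was 1.48, for let-7a. Counting error was largest in aged replicate 5, where let-7e rested on 8 reads (95% Poisson interval 3.45 to 15.8) and miR-98 on 13 (6.92 to 22.2), while let-7f had 843.

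**Figure D3:**
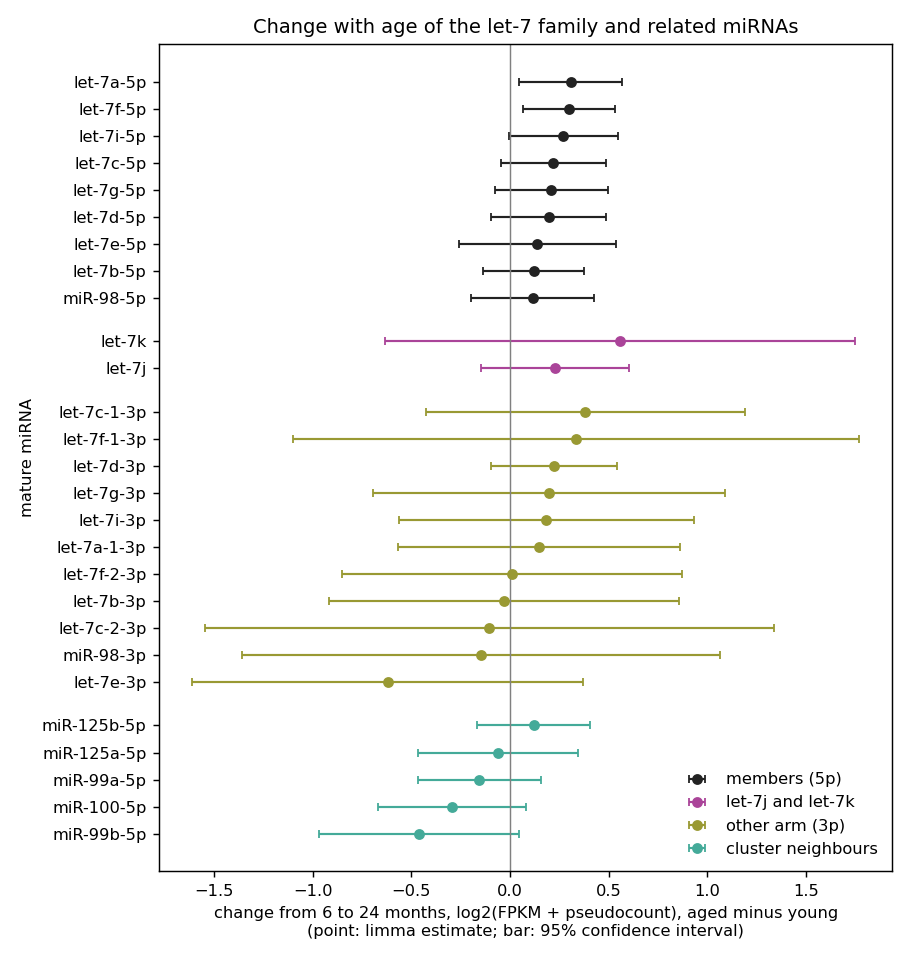
Change from 6 to 24 months on the log2(FPKM + 48.2) scale, aged minus young, for the 9 members, for let-7j and let-7k, for the 3p arms of the family's hairpins and for the cluster neighbours; points are limma estimates and bars 95% confidence intervals (6 libraries per group). The intervals of let-7a and let-7f lie above 0, all others include 0, and none of the adjusted p-values passed 0.05.

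The members were high or low together from library to library. In young replicate 3 all 9 members were below their mean over the 12 libraries, by 0.32 to 0.60 on the log2 scale. In young replicate 5, aged replicate 1 and aged replicate 4 all 9 were above it, by 0.22 to 0.59 in aged replicate 1. Within an age group the SD of a member's log2 level was 0.16 to 0.33 with a median of 0.24, whereas the SD of its log2 share of the family was 0.05 to 0.21 with a median of 0.11, and the second was the smaller for 9 of 9 members. A share cancels any scale common to a library and divides each member by a sum that holds it. Its smaller SD is therefore in part built in. A scaling factor of each library by median of ratios, over the miRNAs read in every library, was also lowest in young replicate 3 (0.8685) and highest in young replicate 5 (1.17). Whether the libraries differed in the family or in a wider scale was not tested.

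**Figure D4:**
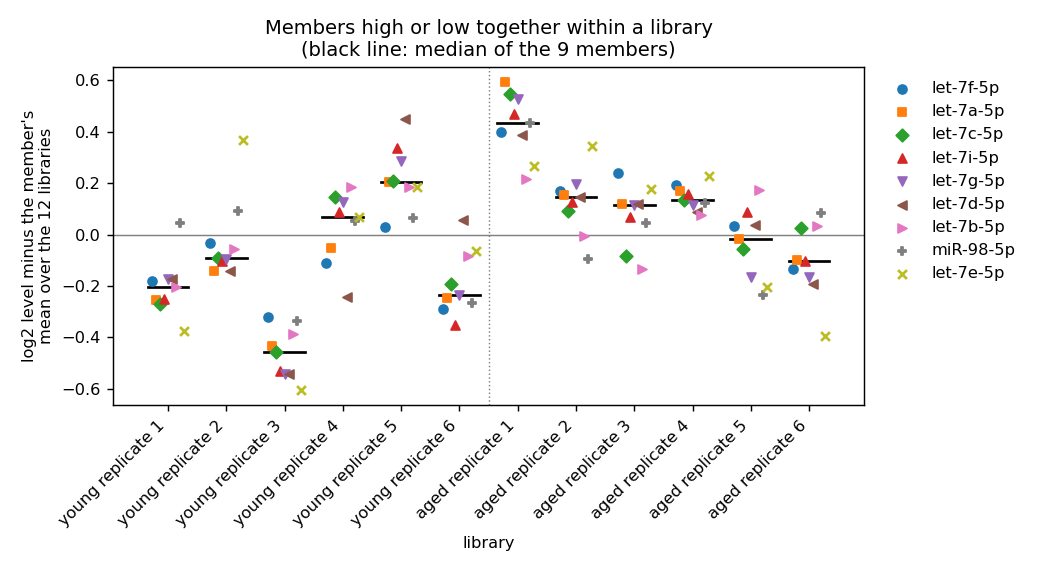
Deviation of each member's log2 FPKM from its own mean over the 12 libraries, by library; each symbol is a member and the black line the median of the 9. All 9 members sit below 0 in young replicate 3 and above 0 in young replicate 5, aged replicate 1 and aged replicate 4.

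Young replicate 3 and aged replicate 1 weighed on the age comparison. Without young replicate 3 the log2 ratio of the mean family sums was 0.22, without aged replicate 1 it was 0.20, and in either case 1 member had an unadjusted limma p under 0.05. Without young replicate 5 the ratio was 0.33 and 6 members had an unadjusted limma p under 0.05. Single changes moved with these libraries too. Without young replicate 3 the log2 change of let-7e was 0.03, that of let-7d 0.11 and that of let-7g 0.12, and without aged replicate 1 that of miR-98 was 0.04 and that of let-7c 0.13. In none of these fits was a member called after adjustment.

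Other values moved with the family across the 12 libraries. The summed log2 level of the 4 white blood cell miRNAs was 13.0 to 14.2 in young and 13.4 to 14.6 in aged muscle, and it was lowest in young replicate 3 and highest in aged replicate 1. Its Pearson's r with the log2 family sum was 0.805 over the 12 libraries (Spearman's rho 0.727) and 0.490 without aged replicate 1 and young replicate 3. Within the young libraries its r was 0.762, and within the aged libraries 0.897. The muscle list had an r of 0.248 over the 12 libraries but of 0.801 within the young and 0.633 within the aged ones, and the endothelial list had 0.424 over all, 0.659 in young and 0.619 in aged muscle. Lists were summed in FPKM, so these values mostly follow the most abundant miRNA. In young muscle the mean was 5367290 FPKM for miR-133a-3p against 205783 for miR-1a-3p, the next of the muscle list. In the endothelial list it was 329209 for miR-126a-5p and 37303.5 for miR-126a-3p. For fibroblasts r was 0.116 over all, 0.568 in young and -0.453 in aged muscle, and for red blood cells it was -0.0255, -0.438 and 0.762, so that neither list kept 1 direction in both groups. The same was true of log10 of the estimated reads, with 0.189, -0.298 and 0.294. The scaling factor of each library by median of ratios moved closely with the family sum within an age, with an r of 0.950 in young and 0.910 in aged muscle, against 0.787 over all 12 libraries and 0.585 without aged replicate 1 and young replicate 3. After scaling by this factor the log2 ratio of the mean family sums was 0.25, against 0.27 on the deposited scale, and all 9 fitted changes were above 0. All of these points share the library, and the part of white blood cells or of the other cell types in the result was not tested.

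The miRNAs whose log2 level was most like the log2 family sum over the 12 libraries were picked from 437 other miRNAs by Pearson's r, which had a median of 0.159. miR-378a-3p was the most alike, with r = 0.960 and Spearman's rho = 0.972. Its r was 0.957 within the young and 0.967 within the aged libraries, and 0.938 without aged replicate 1 and young replicate 3. This miRNA lies in an intron of Ppargc1b, a coactivator gene of mitochondrial metabolism.

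The others above 0.8 were miR-92a-3p (r = 0.944), miR-25-3p (r = 0.894), miR-378c (r = 0.874) and miR-196a-5p (r = 0.808). miR-92a and miR-25 share a seed family with each other, and miR-196a is encoded within the Hox gene clusters. Like the family, all 5 were higher in aged replicate 1 than in young replicate 3. This order follows largely from the choice by r, since the family sum was highest and lowest in these libraries. They were also the highest and the lowest library for miR-378a-3p, with 20.71 and 20.07 on the log2 FPKM scale. The same held for miR-92a-3p (16.59 and 15.30) and miR-25-3p (14.24 and 13.3). Their fitted log2 changes with age were 0.18 for miR-378a-3p, 0.37 for miR-92a-3p, 0.38 for miR-25-3p, 0.20 for miR-378c and 0.11 for miR-196a-5p, and none was called (limma adjusted p from 0.0996 to 0.783). These correlations are across libraries that share depth and scaling within each point, and they are given as a description.

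A pair of relatives by name and a further carrier of the seed were also in the table. Their sequences are shown because they differ from the family at the seed or in length, with bases 2 to 8 in capitals.
let-7j: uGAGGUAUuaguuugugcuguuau
let-7k: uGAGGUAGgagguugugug
miR-1961: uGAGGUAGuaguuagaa

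let-7j is let-7i with G8U and 2 more bases at the 3′ end, so it does not carry the seed of the family. It had 3350 to 6747 FPKM in young muscle with a median of 4375, and 3795 to 6889 FPKM in aged muscle with a median of 5369, which places it between miR-98 and let-7e by mean level. The age groups overlapped, and its log2 change was 0.23 (95% interval -0.15 to 0.60, limma adjusted p = 0.641). In every library let-7j was a small fraction of let-7i, 5.48% to 9.02% of its FPKM, with means of 7.51% ± 0.765 in young and 7.37% ± 1.29 in aged muscle (SD, n = 6 each). Whether reads of let-7i entered the let-7j row was not tested.

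let-7k has the seed but is only 19 bases long, and it had 15 reads in all young and 37 in all aged libraries, with 0 reads in 3 of the 12. miR-1961, a 17-base entry, had 0 reads in every library.

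The other arm of each hairpin, the 3p strand, is usually discarded after the guide strand is loaded into Argonaute. Of 12 such strands 11 passed the filter of a value above 0 in at least 5 of 12 libraries, and let-7a-2-3p, with 3 reads in all, did not. By limma 0 of 11 were called and 0 of 11 had an unadjusted p under 0.05, and limma voom and the exact permutation test gave the same counts. Over all 482 miRNAs tested 2.9% were called by limma and 12.9% had an unadjusted p under 0.05. At these shares 0 of 11 does not set the 3p strands apart. Fitted changes of the 3p strands were above 0 for 7 and below 0 for 4, from -0.62 for let-7e-3p to 0.38 for let-7c-1-3p. Both ends rest on few reads, 11 in young and 23 in aged muscle for let-7e-3p and 10 and 14 for let-7c-1-3p. By limma voom the log2 change was -0.14 for let-7e-3p and -0.33 for let-7c-1-3p, so the latter changed direction.

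let-7d-3p stood out among the 3p strands by its level. It ran from 5330 to 7486 FPKM in young muscle with a median of 6496, and from 5673 to 9216 FPKM in aged muscle with a median of 8423. The groups overlapped, and the log2 change was 0.22 (95% interval -0.09 to 0.54, limma adjusted p = 0.552). It took 23.1% of the FPKM of both arms of let-7d in young and 24.0% in aged muscle, from 1073 and 2558 reads, and its mean level was above that of the guide strands of miR-98 and let-7e.

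In the other hairpins the 3p strand was a small part. It made up 4.63% of both arms of let-7b in young and 3.51% in aged muscle, 2.83% and 1.16% of let-7e, and 2.43% and 2.10% of miR-98. These shares come from FPKM summed over libraries, where a read of a shallow library weighs more than a read of a deep library. For let-7e the 3p strand had 11 reads in young and 23 in aged muscle, against 630 and 1152 of the 5p strand. The gap between the ages in the share of let-7e thus does not show a fall. For let-7a-1, let-7c-1, let-7c-2, let-7f-1, let-7f-2, let-7g and let-7i it stayed under 1% at both ages, and for let-7a, let-7c and let-7f the 5p level is that of both copies together. The 3p strands of let-7a-1 and let-7c-2 are the same 22 bases, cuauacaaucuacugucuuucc, so their rows cannot be told apart; together they had 220 reads in young and 413 in aged muscle, with 1270 ± 195 and 1252 ± 229 FPKM (SD, n = 6 each).

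The balance of the arms was tested as log2 of 5p over 3p. By limma 0 of 11 let-7 and miR-98 hairpins were called and 0 of 11 had an unadjusted p under 0.05 (adjusted p from 0.565 to 0.983), where 0.629% of the 159 hairpins tested were called and 11.3% had an unadjusted p under 0.05. For let-7d the log2 ratio was 1.70 ± 0.33 in young and 1.68 ± 0.22 in aged muscle (SD, n = 6 each). The difference was -0.03 with a 95% interval of -0.45 to 0.40. For let-7e, whose 3p strand had 11 reads in young and 23 in aged muscle, it was 0.76 with a 95% interval of -0.29 to 1.81, so that a shift of that size could not be told from 0 at this depth.

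**Figure D5:**
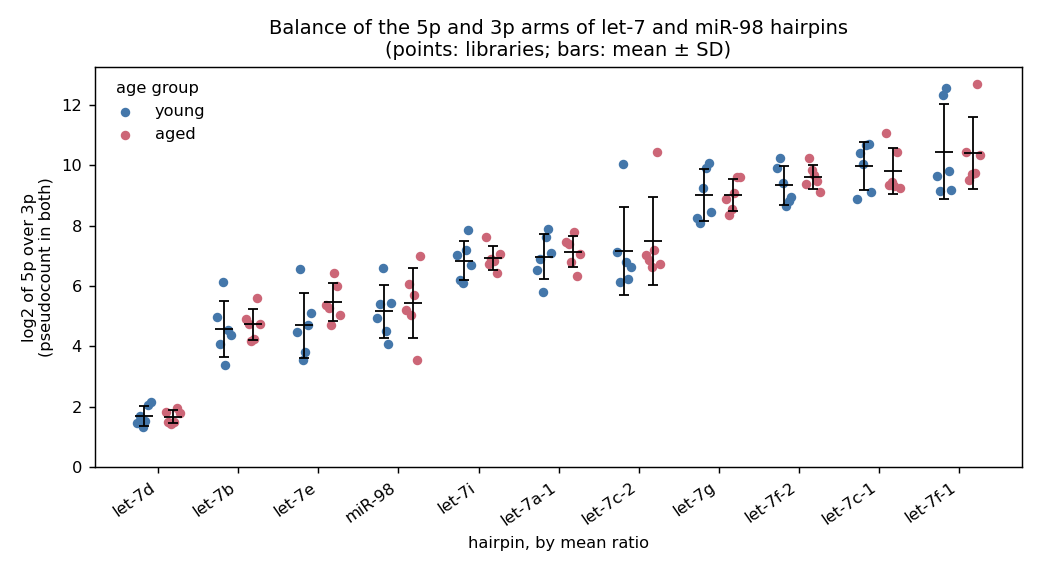
Log2 ratio of the 5p over the 3p strand, with 48.2 FPKM added to both, in each library for the 11 hairpins tested; points are libraries and bars the mean ± SD (6 per group). let-7d has the lowest ratio, near 1.7 at both ages, and young and aged libraries overlap for every hairpin.

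The neighbours of let-7 hairpins in the miR-99, miR-100 and miR-125 clusters come from genomic clusters that each hold a let-7 hairpin. By limma 0 of 5 neighbours were called, and 0 of 5 had an unadjusted p under 0.05 by limma, by limma voom or by the exact permutation test. Over all 482 miRNAs tested 2.9% were called by limma and 12.9% had an unadjusted p under 0.05. At these shares 0 of 5 does not set the neighbours apart. Fitted changes were -0.46 for miR-99b (95% interval -0.97 to 0.04), -0.29 for miR-100 (-0.67 to 0.08), -0.15 for miR-99a (-0.46 to 0.15), -0.06 for miR-125a (-0.47 to 0.35) and 0.12 for miR-125b (-0.17 to 0.40). The difference between the neighbours and the let-7 members was not tested.

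Across the 12 libraries the neighbours of the miR-99 and miR-100 family ran opposite to the family sum, and those of the miR-125 family did not. Pearson's r with the log2 family sum was -0.722 for miR-99a, -0.672 for miR-99b and -0.684 for miR-100, and it was 0.286 for miR-125a and 0.492 for miR-125b. For miR-99a, miR-99b and miR-100 r was -0.743, -0.755 and -0.637 within the young libraries and -0.925, -0.401 and -0.802 within the aged libraries. For miR-125a and miR-125b it was 0.125 and 0.323 within the young libraries and 0.920 and 0.657 within the aged libraries. Without aged replicate 1 and young replicate 3, r was -0.514, -0.652 and -0.568 for the first 3 and 0.0364 and 0.321 for miR-125a and miR-125b. The points share library and scaling, and the values are a description of these 12 libraries.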

How the data were processed

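Small RNA of 12 gastrocnemius muscles was sequenced on an Illumina instrument. The study's methods say that adaptors were trimmed, BWA with default options placed the reads on mm10, and FPKM was computed for each mature miRNA of miRBase version 20. The submitters' processing notes list TopHat2. Strand use and the handling of reads with several hits are not given in the sources used here. The deposited values were log2 of FPKM to 2 decimals, with 0 for a miRNA without a read (76.4% of values). Groups were read from the labels of the samples.

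Values were taken back to FPKM, and the copies of a mature miRNA were added up. Reads were estimated from the lowest step of each library, taken as 1 read of a miRNA of 22 bases. With RefSeq lengths (1603 of 1900 names matched), 99.25% of the 3211 values that came to fewer than 25 reads were whole to within 0.15. Depth is given with the results. Wilson and Poisson intervals cover counting error only, and limma intervals reflect the spread between libraries. The 482 miRNAs above 0 in at least 5 of 12 libraries were fitted on log2(FPKM + 48.2) with limma 3.58.1 in R 4.3.3 (eBayes with trend, aged minus young, two-sided, no covariate, Benjamini-Hochberg adjustment at 0.05). The pseudocount of 48.2 was the lowest non-zero FPKM of a library, as the median of the 12. Arm ratios were fitted the same way. The fit was tested on simulated data with changes much larger than those fitted for the members. It therefore does not show how often changes of the members' size would be called. Scripts used Python 3.11.15, pandas 2.3.3, NumPy 2.4.6, SciPy 1.17.1 and matplotlib 3.10.9.

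The members, the lists and the tests were chosen with earlier results of these data known. Named were the members, their 3p strands, other carriers of the seed, let-7j and let-7k, cluster neighbours, the 5 miRNAs most like the family sum, and cell type miRNAs. The results were recomputed with pseudocounts of 1 and 482 FPKM, without the filter or with one on the mean level, after quantile normalization or scaling by median of ratios, with the replicate number as a block, with depth as a covariate and with zeros kept as values. Further alternatives were limma without trend, voom on the recovered reads, an exact permutation test, averaged copies, and the omission of each library in turn. For the family sum, its share of all FPKM and the mean of log2 values were also used. The study's mRNA sequencing was not analysed here. Replicate numbers did not pair the libraries: the correlation of deviations between libraries of the same number ran from -0.094 to 0.095 over 6 pairs.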

Additional observations from a re-analysis of the deposited data

Results flagged for a closer look

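In groups of 6 libraries, 5 of 64 groups held a library whose gap to the next was large for the range of the group, where chance gives about 3.2 in 64. Aged replicate 1 gave 2 of them. Its share of let-7a was 16.63% of the family where the rest of the aged group had 14.83% to 15.2%, and its level of let-7c was 16.64 on the log2 FPKM scale against 16.01 to 16.23. The other 3 were 3p strands with 0 reads in the library, where the value of 5.592 is the log2 of the pseudocount. These were let-7c-2-3p in aged replicate 5 (the other aged libraries had 9.05 to 9.61) and in young replicate 3 (8.72 to 10.1), and let-7f-1-3p in aged replicate 5 (7.78 to 8.90). At 0 reads these values are floors and not measured levels. let-7c-2-3p has the same bases as let-7a-1-3p, whose row held 3 reads in aged replicate 5 and 8 in young replicate 3. How such reads were placed between the rows is not given, so 0 in this row does not show that the strand was absent.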

How the results depend on the processing

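No member was called under any of the 25 alternatives, and no let-7 or miR-98 hairpin was called in the balance of 5p and 3p under its 15. Among the 25, the exact permutation test called 0 of all 482 miRNAs, so it adds nothing to the count for the members. The lowest adjusted p of any member was 0.0850, for let-7a and let-7f with median-of-ratios scaling. Of 225 recomputed log2 changes of members, 224 kept their direction and 1 turned, let-7b under quantile normalization (-0.0011). The count includes fits that left every estimate as it was and so could not turn one. These were no filter, the filter on the mean, the replicate block, limma without trend and the exact permutation test. The sizes of the changes were less stable: with 1 library left out the log2 change ran from 0.03 to 0.23 for let-7e (lowest without young replicate 3, highest without aged replicate 6), from 0.11 to 0.31 for let-7d (without young replicates 3 and 5) and from 0.04 to 0.17 for miR-98 (without aged replicates 1 and 5). Under limma without trend 0 members had an unadjusted p under 0.05, and with median-of-ratios scaling 4 had. The log2 ratio of the family sums was 0.20 to 0.33 when 1 library was left out (lowest without aged replicate 1, highest without young replicate 5). Averaging the copies moved all 18 shares, as given for let-7i and let-7a in the report. The count over all 482 miRNAs, 14 in the report, was 6 with a pseudocount of 1 FPKM, 7 with no filter, 8 with a filter on the mean, 8 with depth as a covariate, 6 with zeros kept as values and 0 by the exact permutation test, which left 66 at an unadjusted p under 0.05. Leaving out 1 library gave 6 to 15. It was 6 without young replicate 3 or aged replicates 2, 3 or 4, 8 without young replicate 1 or aged replicate 5, and 9 without aged replicates 1 or 6. The cause was not tested. With the replicate number as a block the count was 14 over all miRNAs and 0 for the members. The median change over all miRNAs tested was 0.07 and moved to 0.18 with a pseudocount of 1 FPKM or zeros kept as values and to -0.07 under voom, while that of the members was 0.21, 0.21, 0.21 and 0.23. The members' median was 0.12 without young replicate 3, 0.13 without aged replicate 1 and 0.29 without young replicate 5. Estimated reads differed widely between libraries, which limits the 3p strands, let-7e and miR-98 most.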
